A study of Rattus norvegicus with 62 samples.

Results

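The adipocyte marker genes followed here are 7 genes used to recognise fat cells, namely Adipoq, Lep, Cfd, Retn, Cidec, Cidea and Ucp1. They were taken as named, with every probe set (a group of short probes for 1 transcript) whose annotation gave exactly 1 gene and with no filter on signal. Of the 7 genes, 6 had a probe set, 1 each, among 14217 genes with such a probe set. Retn, which encodes the adipokine resistin, is not analysed here. The members were read on 62 arrays of cardiac muscle from male Wistar rats that received rosiglitazone, an agonist of the nuclear receptor PPARγ and an insulin-sensitising drug, by mouth each day over 14 days at 0, 10 or 80 mg/kg. The vehicle of the 0 mg/kg rats and the age of the animals were not named in the labels. The sample titles give times of 6, 24, 168 or 336 h without naming the point they count from. They are read here as hours after the last dose. On that reading the 2 late times follow 168 or 336 h without drug. The vehicle groups held 4, 6, 5 and 5 arrays in order of time, the 10 mg/kg groups 5, 5, 5 and 6, and the 80 mg/kg groups 5, 5, 6 and 5. The labels do not say that each array is a separate animal, so the tests reflect only how these samples scatter. The comparison asks whether fat adhering to or lying within the heart samples moved with the drug and with its lipid genes.

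White adipocytes store triglyceride in a single large droplet and secrete hormones, and PPARγ directs both their formation and many of their genes. Adipoq encodes adiponectin and Lep encodes leptin, both hormones made mainly by adipocytes, and Cfd encodes adipsin, a serine protease of the alternative complement pathway. Cidec and Cidea encode proteins of the lipid droplet surface that promote droplet growth, and Cidea is also abundant in brown fat. Ucp1 encodes the mitochondrial uncoupling protein that lets brown adipocytes make heat. The heart carries fat on its outer surface and around its vessels, so a heart sample can contain some.

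Promoters of Adipoq, Cidec and Ucp1 are shown because these genes were high together in 1 array, as described further on. Each is the RefSeq window of 300 bases (250 before to 50 after the annotated start) in build GRCr8, read 5′ to 3′ on the gene's own strand, which is the minus strand for all 3: Adipoq at chr11:91240120-91240419, Cidec at chr4:148137066-148137365 and Ucp1 at chr19:41721372-41721671. Capitals mark CCAAT on either strand (ATTGG on the other), TATAAA and AGGTCA, a half-site of nuclear receptor elements. AGGTCA was searched on both strands and had no exact match in these 3 windows. Longer elements and inexact matches were not searched.
Adipoq: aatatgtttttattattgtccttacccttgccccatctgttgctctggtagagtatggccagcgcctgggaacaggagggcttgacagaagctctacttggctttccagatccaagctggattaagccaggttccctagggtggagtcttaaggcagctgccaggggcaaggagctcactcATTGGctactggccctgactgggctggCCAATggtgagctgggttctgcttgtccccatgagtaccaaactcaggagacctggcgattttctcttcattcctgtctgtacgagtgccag
Cidec: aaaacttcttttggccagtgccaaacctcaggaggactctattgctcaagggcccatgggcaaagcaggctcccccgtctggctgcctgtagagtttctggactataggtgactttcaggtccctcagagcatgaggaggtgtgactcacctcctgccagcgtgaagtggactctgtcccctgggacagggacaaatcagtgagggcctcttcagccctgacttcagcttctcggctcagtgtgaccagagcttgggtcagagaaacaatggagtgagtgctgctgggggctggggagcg
Ucp1: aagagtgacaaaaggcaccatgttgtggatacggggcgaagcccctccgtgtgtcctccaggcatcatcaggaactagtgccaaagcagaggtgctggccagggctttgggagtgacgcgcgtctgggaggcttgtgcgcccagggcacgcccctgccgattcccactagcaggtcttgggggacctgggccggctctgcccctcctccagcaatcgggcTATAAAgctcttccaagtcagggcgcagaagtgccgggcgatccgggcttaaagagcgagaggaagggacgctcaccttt
The Adipoq window held CCAAT at 69 and 42 bases upstream of the start, the Ucp1 window held TATAAA at 30 bases upstream, and the Cidec window held none of the 3 motifs. Of 33469 rat windows of the same length, 37.5% held CCAAT, 14.2% TATAAA and 16.2% AGGTCA. The 3 windows had no motif in common among those searched.

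All values below are log2 signals after quantile normalization unless said otherwise, and a probe set was called changed at an adjusted p under 0.05 over 31042 probe sets (limma, moderated test, Benjamini-Hochberg). The deposited arrays differed in brightness, with trimmed means from 82.9 to 246. The arrays carried heart RNA: all 7 cardiomyocyte markers had mean levels between 12.65 and 14.07. A level of 5.03, the 40th percentile of mean signal, serves as a mark for dim probe sets: 11 of 14 measured genes of other organs had means below it. The other 3 were Ins1 (6.95), Alb (6.45) and Gh1 (5.07), so a level above the mark need not mean expression. In 10 arrays the atrial myosin light chain Myl7 was at 9.32 or more, against at most 8.71 in the other arrays. They included 1 of the 20 vehicle arrays, 4 of the 21 treated with 10 mg/kg and 5 of the 21 treated with 80 mg/kg, all sampled at 6 or 24 h. Arrays formed 3 clusters on the first principal components, of 21, 21 and 20, and the second held every 336 h array. By Dixon's test at 95%, 4 arrays lay apart from their groups in Rbp7, Gpihbp1 or Fabp4, genes that respond to the drug. One of them, 10 mg/kg at 24 h replicate 1, is described further on. The other 3, without which 0 members were called as well, were 10 mg/kg at 6 h replicate 5 (Rbp7 at 7.43, against 10.34 to 11.12 in its group), 10 mg/kg at 168 h replicate 4 (Fabp4 at 11.71, against 12.04 to 12.17) and vehicle at 24 h replicate 4 (Rbp7 at 9.001, against 7.48 to 7.84). In bulk tissue, fewer cells of a type and less RNA per cell cannot be told apart.

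The defining fat genes Adipoq, Lep, Cidec and Ucp1 lay below the dim mark in most hearts. Adipoq ranged from 0.94 to 7.64 with a median of 3.08 and reached the dim mark in 7 of 62 arrays. Cidec ranged from 0.94 to 7.42 with a median of 1.81 and reached it in 1 array. Ucp1 ranged from 2.56 to 10.32 with a median of 3.62 and reached it in 4 arrays, and Lep, from 1.29 to 5.06, in 1 array. Cfd reached it in 58 arrays, with levels from 3.50 to 6.82. Cidea reached it in all 62, between 9.54 and 11.27. Of the adipocyte genes, Cidea alone was thus well above the dim mark in every heart, and Cfd lay just above it in most. The mean of Cfd, 5.86, lay below those of Ins1 and Alb.

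**Figure D1:**
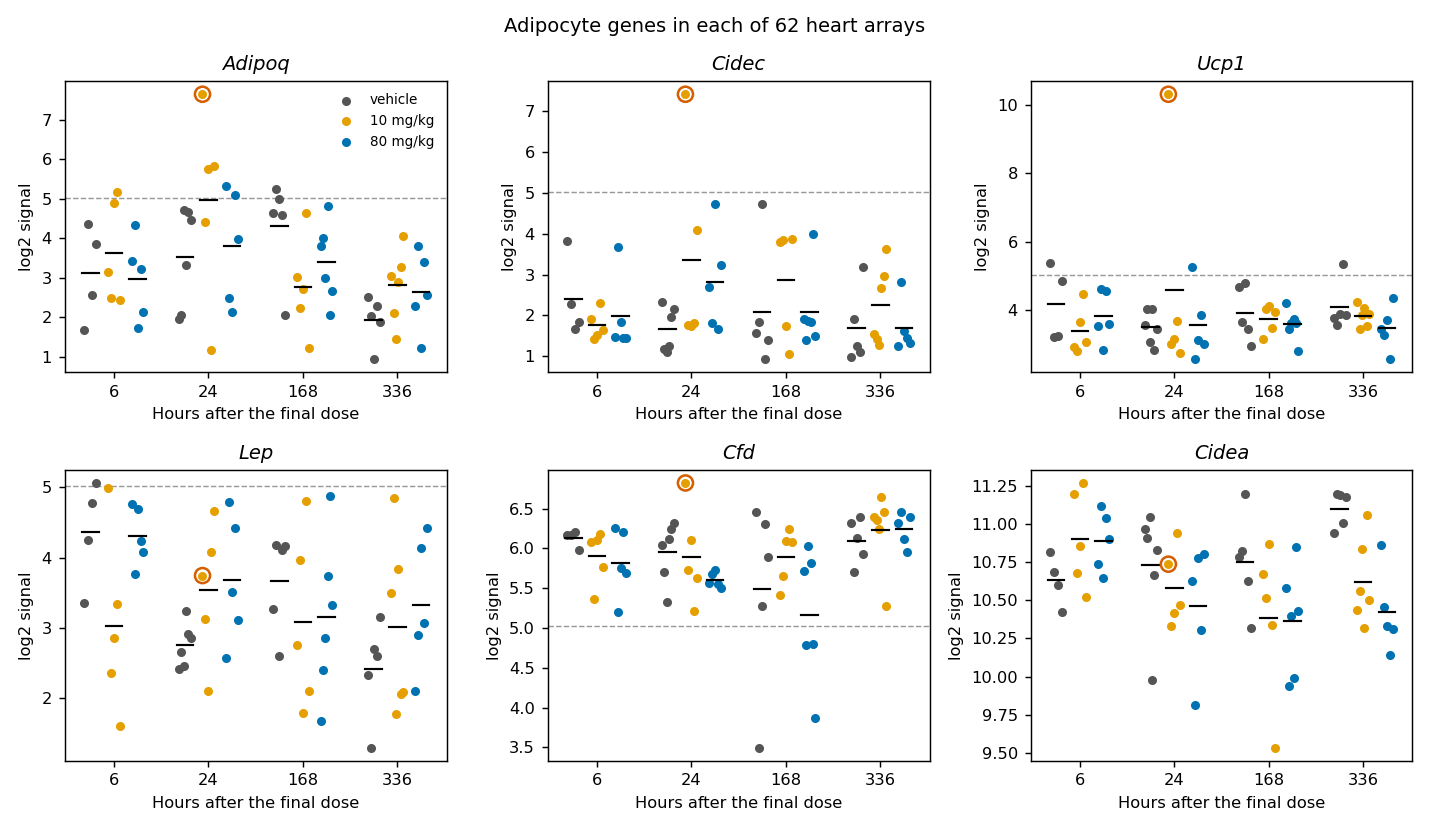
Log2 normalized signal of 6 adipocyte genes (vertical axes, scales differ between panels) for vehicle, 10 mg/kg and 80 mg/kg. Horizontal axes give the hours in the titles, read as hours after the final dose. Each point is 1 array and short lines are group means. The dashed line is the dim mark of 5.03 (not drawn for Cidea, which lies above it). The circled array, 10 mg/kg at 24 h replicate 1, lies at 7.64 for Adipoq, 7.42 for Cidec and 10.32 for Ucp1.

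For the hormone adiponectin, the levels of Adipoq in vehicle hearts were 3.11 ± 1.22 at 6 h, 3.53 ± 1.28 at 24 h, 4.30 ± 1.29 at 168 h and 1.93 ± 0.60 at 336 h (mean ± SD). Adipoq at 10 mg/kg was at 3.62 ± 1.32 at 6 h, 4.96 ± 2.41 at 24 h, 2.76 ± 1.25 at 168 h and 2.80 ± 0.92 at 336 h. With 80 mg/kg Adipoq stood at 2.96 ± 1.04 at 6 h, 3.80 ± 1.46 at 24 h, 3.38 ± 1.01 at 168 h and 2.65 ± 1.002 at 336 h. The order of the 12 group means ran from 1.93 (vehicle, 336 h) to 4.96 (10 mg/kg, 24 h), and the widest step between neighbours was 0.72, within the larger SD of the pair. The vehicle means lay between 1.93 and 4.30 (limma F test between times, adjusted p = 0.248). For leptin, the levels of Lep in vehicle hearts were 4.36 ± 0.75 at 6 h, 2.75 ± 0.31 at 24 h, 3.67 ± 0.71 at 168 h and 2.41 ± 0.70 at 336 h (mean ± SD). Lep at 10 mg/kg was at 3.03 ± 1.27 at 6 h, 3.54 ± 0.98 at 24 h, 3.08 ± 1.28 at 168 h and 3.01 ± 1.23 at 336 h. With 80 mg/kg Lep stood at 4.31 ± 0.42 at 6 h, 3.68 ± 0.91 at 24 h, 3.15 ± 1.11 at 168 h and 3.32 ± 0.95 at 336 h. The group means ran from 2.41 (vehicle, 336 h) to 4.36 (vehicle, 6 h), both in vehicle rats, and no neighbours in the order were farther apart than their larger SD. For adipsin, the levels of Cfd in vehicle hearts were 6.13 ± 0.10 at 6 h, 5.96 ± 0.37 at 24 h, 5.49 ± 1.202 at 168 h and 6.10 ± 0.28 at 336 h (mean ± SD). Cfd at 10 mg/kg was at 5.90 ± 0.34 at 6 h, 5.90 ± 0.61 at 24 h, 5.90 ± 0.35 at 168 h and 6.23 ± 0.49 at 336 h. With 80 mg/kg Cfd stood at 5.82 ± 0.43 at 6 h, 5.61 ± 0.095 at 24 h, 5.17 ± 0.83 at 168 h and 6.25 ± 0.21 at 336 h. The group means ran from 5.17 (80 mg/kg, 168 h) to 6.25 (80 mg/kg, 336 h), with no step wider than 0.32. Single low arrays set the widest SDs, such as 3.50 in vehicle at 168 h replicate 2.

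For the droplet protein of white fat, the levels of Cidec in vehicle hearts were 2.40 ± 0.99 at 6 h, 1.66 ± 0.55 at 24 h, 2.09 ± 1.51 at 168 h and 1.69 ± 0.91 at 336 h (mean ± SD). Cidec at 10 mg/kg was at 1.76 ± 0.35 at 6 h, 3.36 ± 2.48 at 24 h, 2.86 ± 1.36 at 168 h and 2.25 ± 0.97 at 336 h. With 80 mg/kg Cidec stood at 1.98 ± 0.96 at 6 h, 2.83 ± 1.24 at 24 h, 2.09 ± 0.96 at 168 h and 1.69 ± 0.64 at 336 h. The group means ran from 1.66 (vehicle, 24 h) to 3.36 (10 mg/kg, 24 h), the latter holding the array at 7.42. For its relative Cidea, the levels in vehicle hearts were 10.63 ± 0.17 at 6 h, 10.73 ± 0.39 at 24 h, 10.75 ± 0.32 at 168 h and 11.10 ± 0.12 at 336 h (mean ± SD). Cidea at 10 mg/kg was at 10.90 ± 0.32 at 6 h, 10.58 ± 0.25 at 24 h, 10.38 ± 0.51 at 168 h and 10.62 ± 0.28 at 336 h. With 80 mg/kg Cidea stood at 10.89 ± 0.20 at 6 h, 10.46 ± 0.42 at 24 h, 10.36 ± 0.35 at 168 h and 10.42 ± 0.27 at 336 h. The group means ran from 10.36 (80 mg/kg, 168 h) to 11.10 (vehicle, 336 h), with no neighbours farther apart than their larger SD. For the brown fat uncoupler, the levels of Ucp1 in vehicle hearts were 4.17 ± 1.11 at 6 h, 3.49 ± 0.49 at 24 h, 3.90 ± 0.80 at 168 h and 4.08 ± 0.73 at 336 h (mean ± SD). Ucp1 at 10 mg/kg was at 3.37 ± 0.69 at 6 h, 4.58 ± 3.23 at 24 h, 3.74 ± 0.42 at 168 h and 3.83 ± 0.29 at 336 h. With 80 mg/kg Ucp1 stood at 3.81 ± 0.76 at 6 h, 3.56 ± 1.06 at 24 h, 3.57 ± 0.45 at 168 h and 3.46 ± 0.65 at 336 h. The group means ran from 3.37 (10 mg/kg, 6 h) to 4.58 (10 mg/kg, 24 h), whose SD of 3.23 came with the array at 10.32.

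No adipocyte gene passed the test at either dose at any time. Over 14 comparisons and 6 genes, 0 of 84 tests were called by limma, 7 had an unadjusted p under 0.05, and the smallest adjusted p was 0.305. For 80 mg/kg against vehicle, 0 of 6 members were called at 6 h, where 0.0161% of all probe sets were called, at 24 h (0.0644%), at 168 h (0.0193%) and at 336 h (0.148%), and in the mean of the 4 times (0.235%). Members with an unadjusted p under 0.05 numbered 0, 0, 0 and 1 in order of time and 1 in the mean, beside 5.76%, 9%, 5.52%, 6.31% and 8.2% of all probe sets. A count of 0 in 6 is near these background shares, and in simulated data for 80 mg/kg against vehicle at 24 h the same fit recovered 21 of 50 probe sets changed by 1 on the log2 scale, so a change of that size could be missed. The changed probe sets were drawn at random. The SE of that difference was 0.77 for Adipoq, 0.71 for Cidec, 0.67 for Ucp1 and 0.56 for Lep. The median SE of all probe sets was 0.31, so the share recovered is too high a guide for these genes. For Cfd and Cidea the SE was 0.33 and 0.20.

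For 10 mg/kg against vehicle, 0 of 6 members were called at 6, 24, 168 and 336 h, where 0%, 0%, 0% and 0% of all probe sets were called, and 0 of 6 in the mean of the times (0.00644%). By unadjusted p under 0.05 the counts were 1, 1, 0 and 1 of 6 in order of time and 0 in the mean, beside 5.84%, 5.65%, 4.42%, 3.76% and 4.86% of all probe sets. For 80 against 10 mg/kg, 0 of 6 were called at each time, beside 0%, 0.00644%, 0.0226% and 0.0515%, and 1, 0, 1 and 0 had an unadjusted p under 0.05, beside 3.92%, 4.26%, 5.05% and 3.97%. The difference itself did not pass as varying with time for any member: F tests called 0 of 6 for 80 mg/kg (0.0129% of all probe sets), 0 of 6 for 10 mg/kg (0%) and 0 of 6 for vehicle levels alone (2.69%), with 1, 1 and 2 members at an unadjusted p under 0.05, beside 6.32%, 4.68% and 17.3% of all probe sets. The comparisons at 1 time share their vehicle or 10 mg/kg arrays.

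Atrial genes lay above vehicle in these comparisons without passing the adjusted test. At 80 mg/kg in the mean of the times, 4 of 4 atrial genes (Myl7, Myl4, Nppa and Sln) lay above vehicle with an unadjusted p under 0.05 and a median difference of 1.02, and 0 were called. Of all probe sets 8.2% had such a p there and 0.235% were called. At 24 h 3 of the 4 atrial genes had such a p, beside 9% of all probe sets, with a median of 2.05. At 10 mg/kg 4 of 4 lay above vehicle in the mean of the times, with a median of 0.65 and 0 such p, beside 4.86% of all probe sets. Without the 10 arrays with high Myl7, which leaves 1 array at 10 mg/kg and 6 h that is assumed to vary like the other groups, 0 of 6 members were called in each of the 14 comparisons.

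In the mean of the 4 times, the hormone genes differed from vehicle by small amounts with wide intervals. For Adipoq the log2 difference was -0.018 (95% interval -0.82 to 0.79) at 80 mg/kg and 0.32 (95% interval -0.48 to 1.12) at 10 mg/kg. For Lep it was 0.32 (95% interval -0.27 to 0.90) and -0.13 (95% interval -0.72 to 0.45). Cfd, with the narrowest intervals of the 3, differed by -0.21 (95% interval -0.55 to 0.13) at 80 mg/kg, with an upper bound of 1.10-fold, and by 0.063 (95% interval -0.28 to 0.40) at 10 mg/kg. Of the droplet and heat genes, Cidec differed by 0.18 (95% interval -0.55 to 0.92) and 0.60 (95% interval -0.14 to 1.34). Ucp1 differed by -0.31 (95% interval -1.01 to 0.40) and -0.026 (95% interval -0.73 to 0.68). For these dim genes the intervals at 80 mg/kg still allow a 1.72-fold rise of Adipoq and a 1.89-fold rise of Cidec.

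Cidea came nearest to the threshold, downward. At 336 h its vehicle values were 10.94, 11.004, 11.17, 11.19 and 11.20. Its 80 mg/kg values were 10.14, 10.31, 10.33, 10.45 and 10.86, all below the lowest vehicle array. The 10 mg/kg values ran from 10.32 to 11.06 with a median of 10.53, and overlapped those of vehicle. The difference at 80 mg/kg was -0.68 (95% interval -1.09 to -0.27), with limma adjusted p = 0.305, lower in 5 of 5 arrays. Groups did not overlap in this 1 of the members' 72 comparisons at a single time, beside 1.97% of all probe sets in the same comparison and 0.831% over the single-time comparisons together, so the count is near the background. At 10 mg/kg it was -0.48 (95% interval -0.87 to -0.090) with limma adjusted p = 0.9998, and in the mean of the 4 times at 80 mg/kg -0.27 (95% interval -0.47 to -0.066) with limma adjusted p = 0.405. At 6 h the sign was the other way, at 0.26 (95% interval -0.18 to 0.69) for 80 mg/kg, and the change of the effect with time had a limma adjusted p of 0.734.

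The other unadjusted values under 0.05 concerned Lep, Cidec and Cfd. Lep at 6 h was at 3.36, 4.26, 4.77 and 5.06 in vehicle hearts and at 1.60, 2.36, 2.85, 3.33 and 4.99 at 10 mg/kg, a difference of -1.34 (95% interval -2.59 to -0.086) with limma adjusted p = 0.843. At 80 mg/kg it was at 3.77, 4.08, 4.24, 4.69 and 4.77, among the vehicle values. Against 10 mg/kg at 6 h, Lep at 80 mg/kg differed by 1.28 (95% interval 0.10 to 2.46) with limma adjusted p = 0.9998. Cfd at 168 h was at 5.41, 5.66, 6.08, 6.10 and 6.25 at 10 mg/kg, and at 80 mg/kg it ran from 3.87 to 6.03 with a median of 5.26, a difference of -0.73 (95% interval -1.39 to -0.074) with limma adjusted p = 0.954. In each of these comparisons of Lep and Cfd the groups overlapped.

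**Figure D2:**
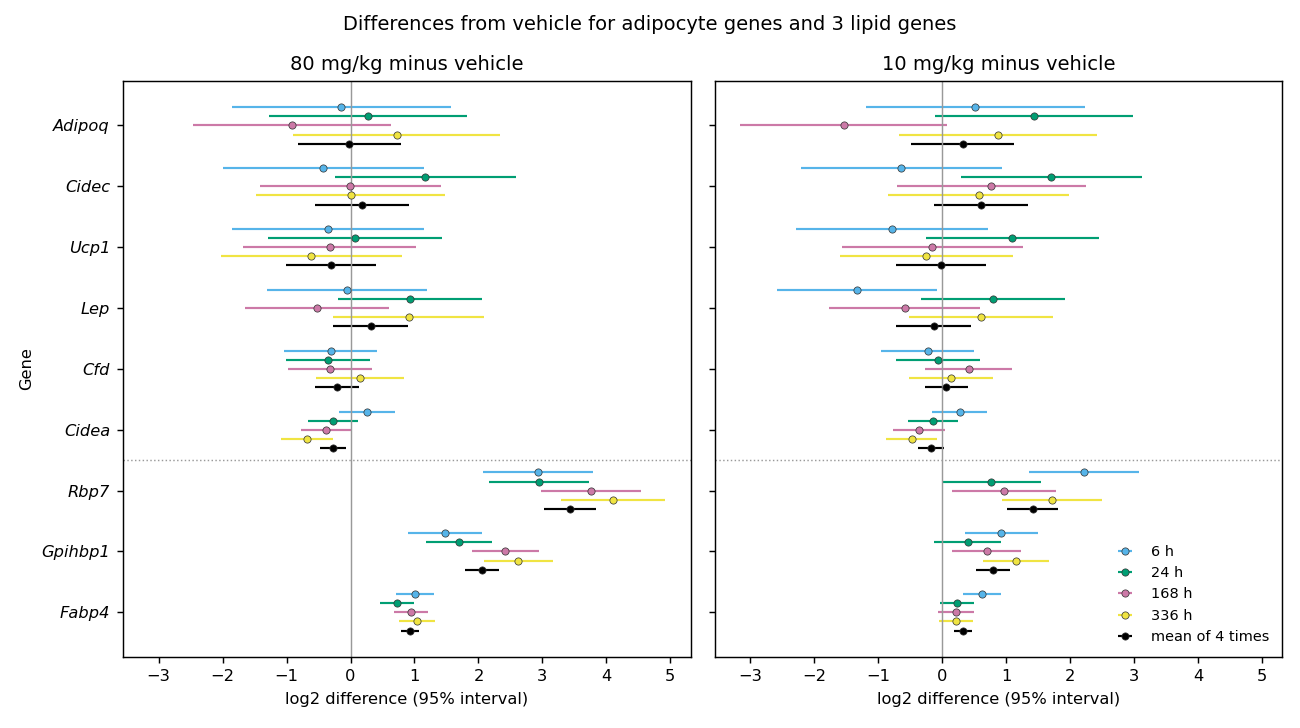
Log2 differences from vehicle (horizontal axes) for the 6 adipocyte genes and, below the dotted line, 3 lipid genes, at 80 mg/kg (left) and 10 mg/kg (right); points are limma estimates and bars 95% intervals, by time and for the mean of the 4 times. At 80 mg/kg the mean differences of Rbp7, Gpihbp1 and Fabp4 lie at 3.44, 2.05 and 0.93, while those of the adipocyte genes lie between -0.31 and 0.32.

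In 1 array several fat genes were high together: 10 mg/kg at 24 h replicate 1. Adipoq in the 5 arrays of that group was at 1.16, 4.41, 5.75, 5.83 and 7.64, against 1.96 to 4.70 with a median of 3.89 in the 6 vehicle arrays at 24 h. Cidec was at 1.75, 1.76, 1.80, 4.08 and 7.42, and Ucp1 at 2.72, 3.01, 3.14, 3.69 and 10.32. The highest value of each belonged to replicate 1, and Ucp1 in the other 4 arrays lay close to the vehicle range at 24 h, which was 2.82 to 4.04. Among the other 61 arrays the highest levels were 5.83 for Adipoq, 4.73 for Cidec and 5.37 for Ucp1, and its Cfd, at 6.82, was the highest of the 62 as well. Lep, at 3.74, and Cidea, at 10.74, were within the range of that group. Control probe sets at the 3′ and 5′ ends of the same transcript serve as a check of RNA quality. Their log2 difference for hexokinase was 3.84 in that array and 1.75, 1.76, 1.775 and 2.91 in its group mates. For actin it was 1.36, against 0.81 to 0.97 in the mates. Vehicle at 24 h replicate 4 had the widest hexokinase difference of all arrays, at 6.08. The part of RNA quality in these values was not tested.

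In that array 4 of the 6 members had their highest level of all 62 arrays, as did 9 of 22 white adipocyte genes, beside 1.55% of all probe sets. The 9 included the lipogenic enzymes Scd (10.55, against at most 6.36 in the other arrays) and Fasn (10.51 against 7.57), the lipogenesis-related protein Thrsp (9.83 against 6.91), the retinol carrier Rbp4 (7.41 against 4.99) and the glyceroneogenic enzyme Pck1 (8.34 against 6.04). The adipocyte transcription factor Cebpa (7.24 against 6.72) and Dgat2, Gpd1 and Car3 made up the rest. The array was chosen for these values, so they are a description. Of 7 measured brown adipocyte genes other than Ucp1, only Gk was highest there, and the thermogenic genes Dio2 (3.19) and Elovl3 (3.89) stayed below the dim mark. Among white adipocyte genes, Plin1, at 5.37, lay above its 4 group mates (2.76 to 5.31) and below the highest of the other arrays (6.36). Lipe (7.84) and Plin4 (10.27) lay below all 4 group mates. No cardiomyocyte, mesothelial, endothelial or fibroblast marker lay above its highest level in the other 61 arrays, and the cardiomyocyte genes Tnnt2 (14.11) and Tnni3 (13.80) equalled it. The linear sum of the 22 white adipocyte genes was 10226 there and at most 6377 in any other array. The summed signal of 5 macrophage markers was also highest there, at 759 against at most 709, and its part in the result was not tested.

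**Figure D3:**
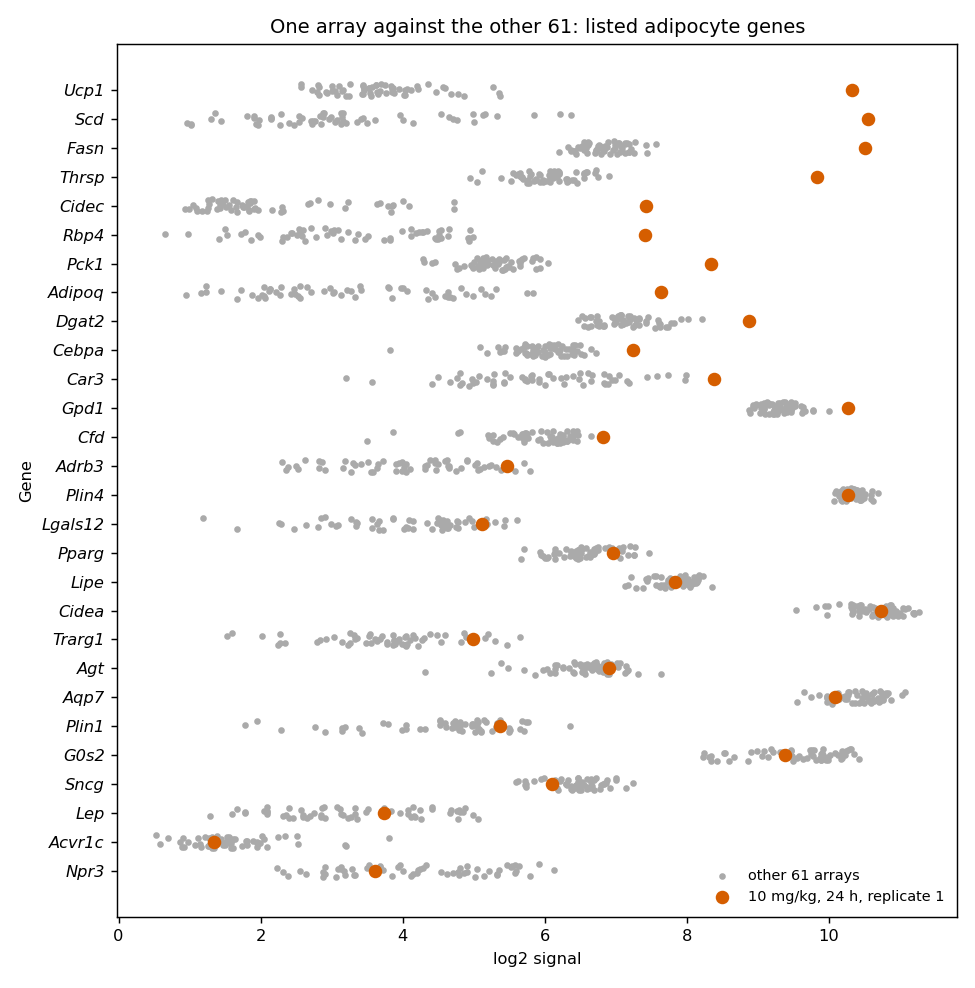
Log2 normalized signal (horizontal axis) of the 6 members and 22 white adipocyte genes (rows, ordered by how far the array stood above the others), with 10 mg/kg at 24 h replicate 1 as large points and the other 61 arrays as small points. Ucp1, Scd, Fasn, Thrsp, Cidec, Rbp4, Pck1 and Adipoq lie to the right of all other arrays, while Plin1, Lipe, Cidea and Lep lie among them.

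How far the differences of the 10 mg/kg group at 24 h depended on that array varied between members. With it, Ucp1 differed from vehicle by 1.09 (95% interval -0.26 to 2.44), Cidec by 1.70 (95% interval 0.28 to 3.12) (limma adjusted p = 0.873) and Adipoq by 1.43 (95% interval -0.12 to 2.97). Without it the difference changed sign for Ucp1, to -0.35, and was 0.69 for Cidec and 0.76 for Adipoq. Lep moved little, from 0.79 to 0.74, as did Cidea, from -0.15 to -0.19, while Cfd went from -0.062 to -0.29. The limma adjusted p without that array lay from 0.773 to 0.87 for the 6 genes. The summed linear signal of the 5 members other than Cidea, which was left out after its high level was seen, was 74.2 to 151 in vehicle hearts and 40.7 to 138 at 80 mg/kg. At 10 mg/kg it was 61.6 to 155 in 20 arrays and 1775 in replicate 1 at 24 h. The dose groups overlapped throughout apart from that array. Cfd gave the largest part of the sum in most arrays. Its mean level was 5.86, against 3.78 for Ucp1, 3.32 for Lep and for Adipoq and 2.21 for Cidec.

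The lipid genes that respond to the drug were called where the fat genes were not. The SE of the difference at 80 mg/kg and 24 h was 0.13 for Fabp4, against 0.77 for Adipoq and 0.71 for Cidec. Calls at a single time thus do not by themselves show unlike responses. Rbp7 (a retinoid-binding protein of capillary endothelium and fat), Gpihbp1 (the capillary anchor of lipoprotein lipase) and Fabp4 (a fatty acid carrier of adipocytes and capillary endothelium) rose at 80 mg/kg at all 4 times. At each time the 80 mg/kg and vehicle arrays of each gene did not overlap, beside 1.64%, 0.863%, 0.551% and 1.97% of all probe sets in order of time. Their mean differences were 3.44 (95% interval 3.03 to 3.84), 2.05 (95% interval 1.78 to 2.32) and 0.93 (95% interval 0.79 to 1.07), and 21 of 21 treated arrays lay above the vehicle mean of their time for each. At 10 mg/kg Rbp7 and Gpihbp1 rose in the mean of the times, by 1.41 (95% interval 1.01 to 1.82) and 0.79 (95% interval 0.52 to 1.06), while Fabp4, at 0.32 (95% interval 0.18 to 0.46), had a limma adjusted p of 0.16. These 3 genes had been picked from earlier results, so their own calls are a base for what follows and no independent support. The calls of Gpihbp1 at 6 h and Fabp4 at 24 h were lost in 6 of 9 and 2 of 11 fits that left out 1 array: for Gpihbp1, any of vehicle replicates 1, 3 and 5 and of 80 mg/kg replicates 1, 4 and 6 (limma adjusted p from 0.0514 to 0.212), and for Fabp4, 80 mg/kg replicates 2 and 4 (0.0554 to 0.1001). On the deposited scale, with no scaling between arrays, Gpihbp1 at 24 h (limma adjusted p = 0.199) and Fabp4 at 24, 168 and 336 h (0.48, 0.401 and 0.0541) were not called. With the 6 h arrays fitted alone none of the 3 was called at 6 h (0.903 to 0.988), and without the arrays with high Myl7 Fabp4 at 24 h was not (0.2). Fabp4 at 24 h also lost its call with median scaling (0.0983) and with the 24 h arrays alone (0.188), and Gpihbp1 at 6 h did with array weights (0.0566), with the replicate number as a block (0.0518) and without the 3 arrays with the largest actin difference (0.152). The endothelial marker Kdr, a receptor for vascular endothelial growth factor, also rose at 80 mg/kg, by 0.48 at 336 h (limma adjusted p = 0.0112) and by 0.22 in the mean of the times (0.0171). It was 1 of 4 measured endothelial markers called there, the median of the 4 was 0.0045 in the mean of the times, and the part of endothelial content in these calls was not tested.

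In the array with the fat transcripts, Rbp7 was at 8.15 and Gpihbp1 at 7.72, the lowest of the 5 arrays of their group (the others at 8.37 to 8.92 and 8.13 to 8.27). Fabp4 was the highest there, at 12.28 against 12.001 to 12.07. At 80 mg/kg and 24 h, Fabp4 was at 12.21, 12.45, 12.64, 12.68 and 12.94 and Rbp7 at 10.001, 10.21, 10.71, 11.16 and 11.997.

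With the level of a fat gene as a covariate in the fit, the differences of the lipid genes at 80 mg/kg moved little. With Adipoq, the 5 differences of each gene moved by at most 0.028 for Rbp7, 0.0051 for Gpihbp1 and 0.017 for Fabp4. With Cidec, which moved them most for these genes, the largest moves were 0.054, 0.017 and 0.039. With Cfd or Ucp1 the largest move was 0.023, for Fabp4. All 5 differences of each lipid gene from vehicle were called with each of the 4 covariates. For 80 against 10 mg/kg at 24 h, the call of Rbp7 (limma adjusted p = 0.0278) was lost with Adipoq (0.0657). It was kept with Cfd (0.0406), Cidec (0.029) and Ucp1 (0.049). That call was also lost without 10 mg/kg at 24 h replicate 1 (0.143). The covariates were themselves dim in most arrays, apart from Cfd. The size of a move in this fit is the slope on the covariate times the covariate's own difference between groups. Slopes lay from -0.057 (Rbp7 on Cfd) to 0.047 (Rbp7 on Cidec). Such slopes on dim signals keep the moves small, so whether fat took part was not tested by this fit. The mean level of Cfd, 5.86, lay below those of Ins1 and Alb, genes of other organs.

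Across the 62 arrays, deviations from group means were correlated for 45 pairs, 15 of them between members and 18 between a member and a lipid gene. The rest paired a member with Myl7 or with the hexokinase 3′ to 5′ difference. After Benjamini-Hochberg adjustment 1 pair passed by Pearson's r and 0 by Spearman's rho. The pair was Cidec and Ucp1, with r = 0.503 (permutation p = 0.00041, adjusted 0.0185) and rho = 0.252 (permutation p = 0.0482, adjusted 0.318). Without the 2 arrays farthest from the median r was 0.199, and without 10 mg/kg at 24 h replicate 1 it was 0.136, so the relation rests on that array. Within the 3 array clusters r was 0.301, -0.179 and 0.817. Adipoq and Cidec had r = 0.188 with all arrays and 0.013 without that array. None of the 18 pairs of a member with a lipid gene passed. Adipoq had r = -0.061 with Rbp7 (permutation p = 0.637, adjusted 0.922) and r = 0.11 with Fabp4 (permutation p = 0.391, adjusted 0.734). Within the 3 clusters, in the same order, r went both ways for some of these pairs. It was 0.706, -0.192 and -0.026 for Ucp1 with Rbp7, and 0.666, -0.306 and 0.282 for Ucp1 with Fabp4. For Lep with Rbp7 it was -0.567, -0.197 and 0.514. Adipoq with Fabp4 had 0.284, 0.195 and 0.512. The values within clusters were not tested. None of the remaining pairs passed either. With the hexokinase difference, Adipoq had r = 0.348 (permutation p = 0.00612, adjusted 0.115), and r within the 3 clusters was -0.507, 0.51 and 0.025. Cfd had rho = 0.34 with that difference (permutation p = 0.00734, adjusted 0.11). Adipoq had rho = 0.327 with Myl7 (permutation p = 0.00993, adjusted 0.112).

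**Figure D4:**
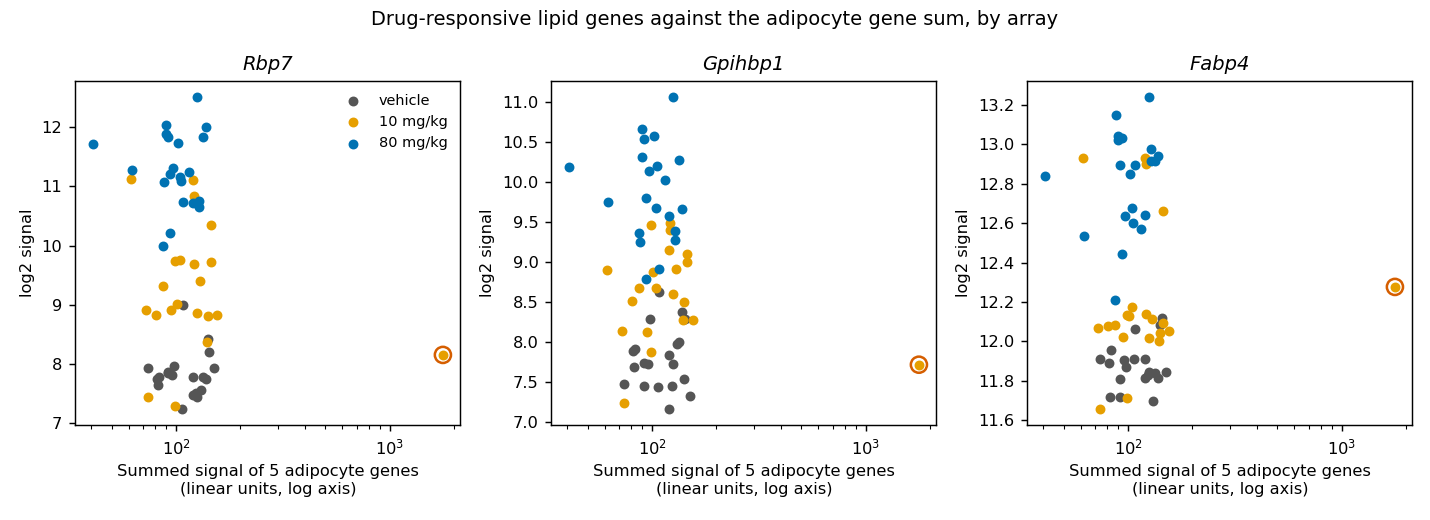
Log2 normalized signal of Rbp7, Gpihbp1 and Fabp4 (vertical axes) against the summed linear signal of Adipoq, Lep, Cfd, Cidec and Ucp1 (horizontal axes, log scale), 1 point per array, coloured by dose. The sum lies between 40.7 and 155 in all arrays but the circled one at 1775, at every dose, and Cfd gives its largest part in most arrays. The 3 lipid genes are higher at 80 mg/kg than in vehicle at each time, and their 10 mg/kg arrays overlap those of vehicle at 6, 24 and 168 h.

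The genes whose deviations were most like those of Adipoq over the 62 arrays were Son (r = 0.60), Zfp84 (0.58), Car3 (0.56), Kcnk6 (0.55), Gpat4 (0.55) and Tshz2 (0.53). Car3, a carbonic anhydrase abundant in adipocytes and muscle, was the one white adipocyte list gene among them, and it stayed at r = 0.53 over 61 arrays without 10 mg/kg at 24 h replicate 1. For Cfd they were Mfsd13a (0.62), Afmid (0.61), Ntf3 (0.60), Slc29a2 (0.57), Lzic (0.55) and P3h4 (0.55), none of them on the adipocyte lists. These are descriptions over arrays that share groups and clusters, and carry no p.

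No gene of the wider adipocyte lists was called at 80 mg/kg in the mean of the 4 times. Of 22 measured white adipocyte genes, 0 were called, with 13 above 0 and a median difference of 0.069, and 3 had an unadjusted p under 0.05. Of 7 brown adipocyte genes 0 were called, with a median of 0.056 and 1 unadjusted p under 0.05. The receptors for the members' hormones (Adipor1, Adipor2, Cdh13, Lepr, Cap1 and Insr) gave 0 of 6 called with a median of -0.003 and 1 unadjusted p under 0.05. The alternative complement genes, with Cfd itself counted among them, gave 0 of 6 with a median of -0.084 and 1 such p. The paralogues of the members gave 0 of 7 with 0 such p. Of 12 lipid droplet genes, 1 was called, the monoglyceride lipase Mgll, at 0.74 in the mean of the times. The share of all probe sets called in that comparison was 0.235%, and 8.2% had an unadjusted p under 0.05. Of 14 lipid response genes, which were chosen on these data, 7 rose and 1, the water channel Aqp1, fell.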

How the data were processed

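Cardiac muscle RNA was hybridised to 62 Affymetrix rat arrays, 1 per sample. What was deposited is 1 linear intensity for every probe set on every array. GCOS and MAS5 are named in the submitters' processing notes; their versions are not given in the sources used here. The deposited table held 31099 probe sets; 57 controls were left out. Signals were turned to log2, quantile normalized and fitted with 12 group means in limma 3.58.1 (R 4.3.3; lmFit, eBayes), with 50 residual and 1.69 prior degrees of freedom. P-values were adjusted by Benjamini-Hochberg over 31042 probe sets, with no filter on dim ones, since a filter would have removed 4 of the 6 members. The number of arrays limits the precision. On simulated data for 80 mg/kg against vehicle at 24 h over 31042 probe sets, the fit recovered 8, 21, 31 and 46 of 50 probe sets changed by 0.5, 1, 2 and 3 on the log2 scale, with 5 false calls. The changed probe sets were drawn at random, and the dim members had larger SEs than the median probe set. Correlations used 100000 random permutations. Genes were named through the platform annotation, in which 20826 probe sets gave 1 gene and 436 gave several; where a listed gene had several probe sets, the brightest was used. All members were named whatever their result, with Rbp7, Gpihbp1 and Fabp4 for the lipid response, the called genes of the lists and the 6 genes most like Adipoq and Cfd. Members, lists and these rules were chosen with earlier results of these data known.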

Additional observations from a re-analysis of the deposited data

Results flagged for a closer look

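In each of 12 groups, 9 genes were searched for an array far from its group by Dixon's test at 95%, which marks about 1 in 20 groups by chance. Of 108 gene and group sets, 16 held such an array, 9 of them for adipocyte genes. Among these, Ucp1 was high in 10 mg/kg at 24 h replicate 1 (10.3, the others 2.72 to 3.69) and in vehicle at 336 h replicate 5 (5.36, the others 3.54 to 3.87). Cidec was high in vehicle at 168 h replicate 3 (4.73), 80 mg/kg at 6 h replicate 2 (3.67), 80 mg/kg at 168 h replicate 5 (4) and 80 mg/kg at 336 h replicate 2 (2.81). All 4 of these Cidec values lay below the dim mark of 5.03. Adipoq was low in vehicle at 168 h replicate 5 (2.05, the others 4.59 to 5.25), Cfd in 10 mg/kg at 336 h replicate 6 (5.27) and Cidea in vehicle at 24 h replicate 4 (9.98).

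Among the lipid genes, 10 mg/kg at 6 h replicate 5 was low for Rbp7 (7.43), Gpihbp1 (7.24) and Fabp4 (11.7). Fabp4 was also low in 10 mg/kg at 168 h replicate 4 (11.7). Rbp7 was high in vehicle at 24 h replicate 4 (9). In the array with the highest Adipoq, Cidec and Ucp1, Gpihbp1 was low (7.72) and Fabp4 high (12.3).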

How the results depend on the processing

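No member was called in any of the 14 comparisons under any alternative or with any 1 array left out, and the smallest adjusted p over 1488 single-time values was 0.0749 (limma; Cidea, 80 mg/kg at 336 h, array weights). With the filter at the 40th percentile only 2 members were tested, so Adipoq, Lep, Cidec and Ucp1 could not be called there. Of 72 single-time differences, 36 kept their sign throughout, and the largest that changed sign was 1.09. Means of the 4 times near 0 changed sign. Cfd at 10 mg/kg was -0.0155 on the deposited scale and -0.0835 without arrays with Myl7 over 9. Cidec at 80 mg/kg was -0.000153 with signals raised to 16 and -0.0684 without those arrays. Ucp1 at 10 mg/kg was 0.00317 with median scaling, 0.0817 with signals raised to 16, 0.112 without the 3 arrays with the largest actin difference and 0.0325 with array weights. Lep at 10 mg/kg was 0.0607 without the 3 arrays other than 10 mg/kg at 24 h replicate 1 that lay apart in the lipid genes, an alternative chosen after seeing the data, as was leaving out 10 mg/kg at 24 h replicate 1. With 1 array left out, Adipoq at 80 mg/kg ran from -0.158 (without vehicle at 168 h replicate 5) to 0.0871 (vehicle at 6 h replicate 3), Cfd at 10 mg/kg from -0.0615 (vehicle at 168 h replicate 2) to 0.123 and Ucp1 at 10 mg/kg from -0.385 (10 mg/kg at 24 h replicate 1) to 0.0894. Replicate numbers did not pair the arrays (median correlation 0.00705 over 52 pairs); with a replicate block, 0 members were called and 74 probe sets in all, against 73, at 80 mg/kg in the mean of the times. On the deposited scale, where the median of all probe sets moved by -0.32 to 0.35, 12 were called there. In that setting Gpihbp1 at 24 h and Fabp4 at 24, 168 and 336 h lost their calls, and with the 6 h arrays alone none of the 3 lipid genes was called at 6 h. Each member had 1 probe set, so averaging probe sets of a gene changed nothing and was not run. Levels under the dim mark limit Adipoq, Lep, Cidec and Ucp1.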
